A study of Homo sapiens with 6 samples.

Results

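The 9 genes described here belong to the transforming growth factor beta (TGF-beta) family pathway in MDA-MB-231 cells. They were picked by symbol, by a rule that uses no expression value but was written with earlier results of these data known, to cover ligands (TGFB1, TGFB2, INHBA, BMP2, BMP4), a secreted antagonist (FST), an inhibitory SMAD (SMAD7) and direct target genes (ID1, ID3), and they are 9 of the 17064 genes in the expression table. MDA-MB-231 is a triple-negative human breast cancer cell line derived from a metastatic site. RNA was sequenced from 6 cultures: 2 vector control libraries, 1 library of cells without MRCKα (gene CDC42BPA), 1 without MRCKβ (gene CDC42BPB) and 2 of double-knockout (DKO) cells without both. MRCKα and MRCKβ are related kinases that act downstream of CDC42 on the actomyosin cytoskeleton, and the comparisons ask which transcripts differ when one or both are missing.

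All 6 cultures had been transduced with a lentiviral CRISPR vector, lentiCRISPRv2, and drug selected. No clones were picked, so each library is a mixed population of transduced cells. The vector control cells carried the empty vector, and their 2 libraries came from 2 separate transductions. The 2 DKO libraries were made with different guide sets, and the labels do not say which set belongs to which library. Each single knockout was sequenced as 1 library, which leaves its differences from the vector libraries without a replicate check and without a p-value.

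TGF-beta and activin ligands bind type II and type I receptor kinases that phosphorylate SMAD2 and SMAD3, while bone morphogenetic proteins (BMPs) act through SMAD1, SMAD5 and SMAD9, and both branches share SMAD4. Follistatin traps activins and some BMPs outside the cell, and SMAD7 is a target gene that blocks the receptors in a negative feedback loop. ID1 and ID3, inhibitors of basic helix-loop-helix transcription factors, are standard readouts of BMP signalling. In breast cancer the family is known for halting growth of epithelial cells early on and for favouring invasion and metastasis later.

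The libraries held between 10349898 and 10657857 expected counts (estimated reads per gene), a spread of 2.98%, and 12911 to 13038 genes had at least 10 counts. RNA of CDC42BPA was present in every library, at 23.32 to 36.43 FPKM (fragments scaled to transcript length and to the mapped reads of the library), and so was RNA of CDC42BPB, at 23.42 to 30.28 FPKM, and since editing by small insertions or deletions need not remove a transcript, the labels cannot be checked from these levels. The 6 mesenchymal-like markers known for this line summed to 2609.2 to 3220.0 FPKM, with VIM at 1532.08 FPKM or more in each library. The 6 luminal epithelial markers summed to 5.21 to 7.91 FPKM, the 8 fibroblast markers to 4.05 to 13.0 FPKM and the 3 leukocyte markers in the table to 0.47 to 2.17 FPKM.

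Per transcript length, the ligand BMP4 had the highest level of the 9 genes and BMP2 the lowest. BMP4 averaged 75.3 ± 20.6 FPKM (SD, n = 6 libraries), followed by TGFB1 at 51.8 ± 3.55, FST at 49.0 ± 19.2 and TGFB2 at 42.3 ± 13.3 FPKM. A lower tier held ID1 at 9.95 ± 3.07, INHBA at 6.18 ± 1.71, ID3 at 5.08 ± 3.24 and SMAD7 at 1.76 ± 0.474 FPKM. BMP2 averaged 0.095 ± 0.0582 FPKM. Within each tier the ranges of neighbouring genes overlapped, so their order is not separated by the spread over libraries. The lowest TGFB2 value, 18.69 FPKM, lay above the highest ID1 value, 14.41 FPKM, and the lowest SMAD7 value, 0.9 FPKM, lay above the highest BMP2 value, 0.18 FPKM.

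**Figure D1:**
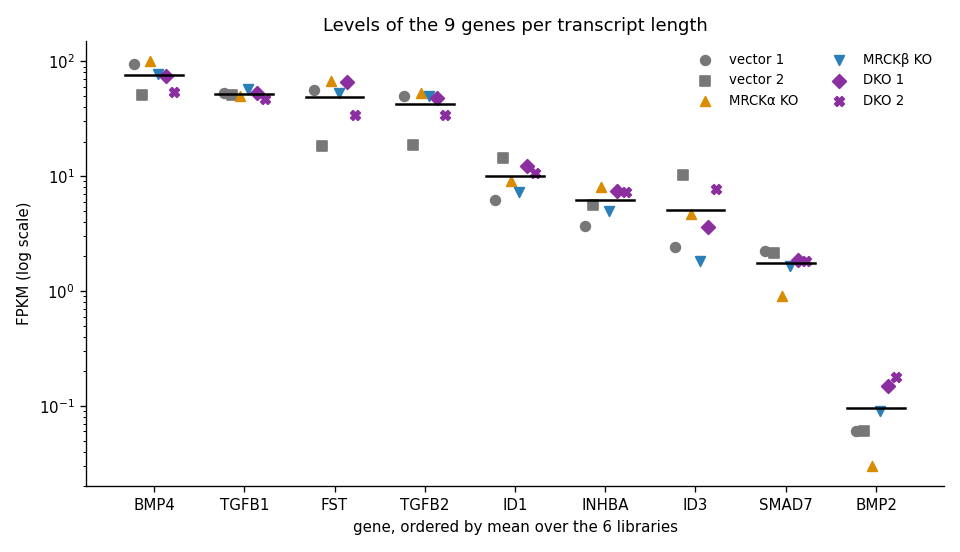
FPKM of each gene on a log axis, 1 point per library, with a bar at the mean of the 6 libraries. The upper 4 genes lie between 18.14 and 100.86 FPKM, the next 4 between 0.9 and 14.41 FPKM, and BMP2 at or below 0.18 FPKM; in the columns of FST and TGFB2 the lowest point is vector 2, and in those of ID1 and ID3 vector 2 is the highest point.

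Among the ligands, TGFB1 was the steadiest and TGFB2, its close relative, differed widely between the 2 controls. TGFB1 (chr19:41301587-41353911, minus strand, GRCh38, as are the gene positions that follow) encodes the founding member of the family. Its level was 52.86 and 50.81 FPKM in vector 1 and 2, 49.92 without MRCKα, 57.12 without MRCKβ, and 53.46 and 46.66 in DKO 1 and 2. The highest library was 1.22-fold above the lowest, and the DKO values lay on both sides of the vector values. DKO over vector gave a log2 fold change of -0.07 in edgeR's quasi-likelihood test (SE 0.13, Benjamini-Hochberg adjusted p = 1.0).

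TGFB2 (chr1:218346235-218444619, plus strand) encodes a second TGF-beta ligand. Its level was 50.32 and 18.69 FPKM in vector 1 and 2, 52.85 without MRCKα, 49.47 without MRCKβ, and 48.23 and 34.18 in DKO 1 and 2. Vector 2 was the lowest library and the other control was among the highest, so both DKO libraries lay between the 2 controls. Vector 1 held 2.69-fold as many reads as vector 2 (exact 95% interval 2.51 to 2.88), an interval that, like those of all read ratios here, covers counting error only and not the variation between cultures. The 2 DKO libraries differed by 1.41-fold (1.33 to 1.49). For DKO over vector the log2 fold change was 0.24 (SE 0.43, adjusted p = 1.0 in edgeR's quasi-likelihood test), and it ranged from -0.30 without vector 2 to 1.12 without vector 1.

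**Figure D2:**
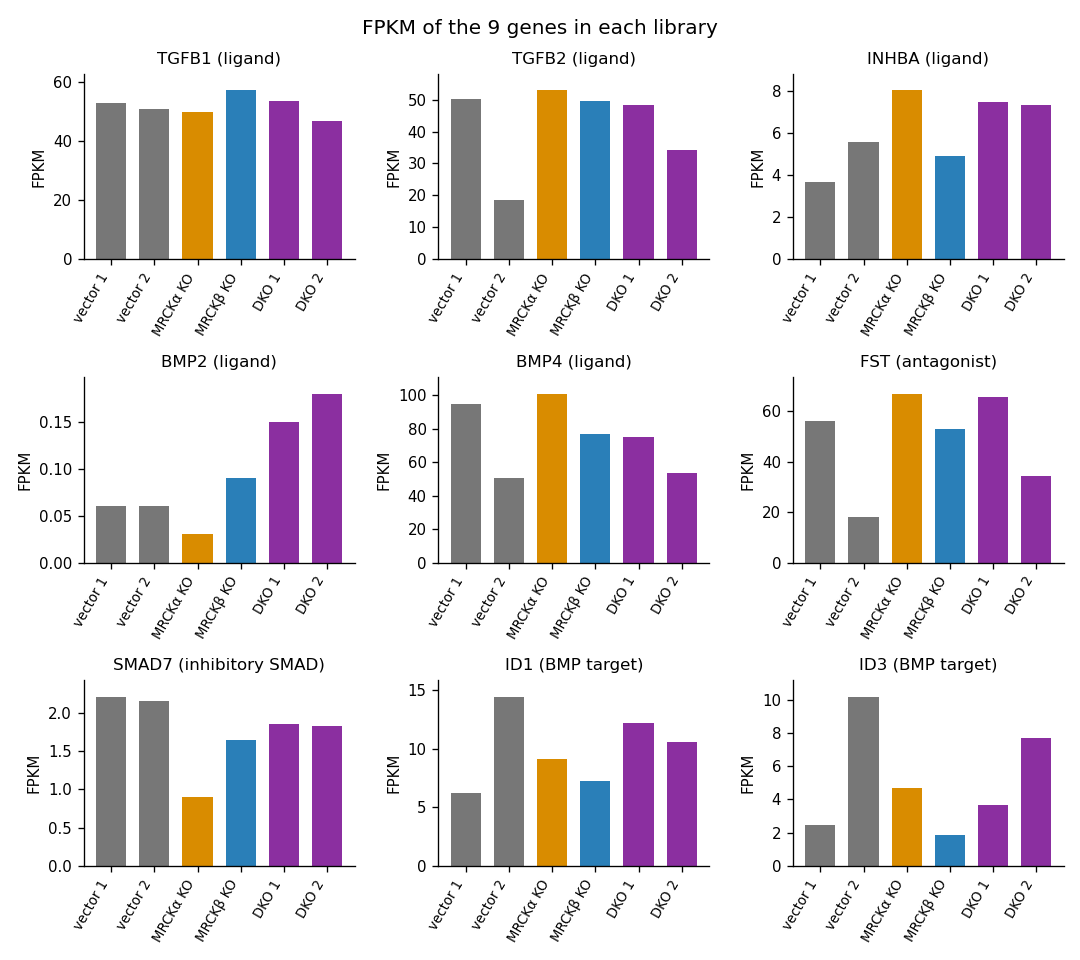
FPKM of each gene, 1 bar per library, each panel with its own axis from 0; grey bars are the vector libraries, orange MRCKα KO, blue MRCKβ KO and purple the DKO libraries. The grey bars of TGFB2, FST, ID1 and ID3 differ by more than 2-fold, those of TGFB1 and SMAD7 are nearly level, and INHBA is higher in both DKO libraries than in both vector libraries.

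INHBA, the activin A subunit gene (chr7:41667168-41705834, minus strand), was the only one of the 8 members tested with an unadjusted p under 0.05. Its level was 3.67 and 5.60 FPKM in vector 1 and 2, 8.04 without MRCKα, 4.93 without MRCKβ, and 7.48 and 7.34 in DKO 1 and 2. MRCKα KO and both DKO libraries were above both controls, while MRCKβ KO lay between the controls. The means were 4.63 ± 1.36 FPKM in vector and 7.41 ± 0.099 FPKM in DKO (SD, n = 2 each). The log2 fold change was 0.64 (SE 0.21, unadjusted p = 0.0214 and adjusted p = 1.0 in edgeR's quasi-likelihood test), and with any 1 of the 4 libraries left out it stayed between 0.44 and 0.87. Such an unadjusted p was found for 2.39% of all 13123 genes tested, 1.36% higher and 1.02% lower in DKO. MRCKα KO held 1.75-fold the reads of the vector libraries (1.52 to 2.0), and MRCKβ KO 1.07-fold (0.907 to 1.25). The reads and the length-adjusted values of INHBA did not move fully in step, since DKO 2 held 0.802-fold the reads of DKO 1 (0.689 to 0.933) but 0.981-fold its FPKM.

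BMP4 (chr14:53949736-53958761, minus strand) encodes a BMP ligand and was the most abundant of the 5 ligands in the mean over libraries. Its level was 94.83 and 50.52 FPKM in vector 1 and 2, 100.86 without MRCKα, 76.88 without MRCKβ, and 75.02 and 53.59 in DKO 1 and 2. Vector 2 was again the lowest, and both DKO libraries lay between the controls. Vector 2 held 0.537-fold the reads of vector 1 (0.496 to 0.58), and DKO 2 held 0.715-fold those of DKO 1 (0.659 to 0.775). The log2 fold change in DKO was -0.19 (SE 0.31, adjusted p = 1.0 in edgeR's quasi-likelihood test).

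BMP2 (chr20:6767664-6780280, plus strand), the closest relative of BMP4, was at the limit of detection. Vector 1 and vector 2 held 2 reads each, MRCKα KO 1, MRCKβ KO 3, DKO 1 5 and DKO 2 6, which the table gives as 0.06, 0.06, 0.03, 0.09, 0.15 and 0.18 FPKM. Both DKO libraries were above both controls, on 11 reads against 4, a ratio of 2.75 with an interval from 0.816 to 11.9. With fewer than 10 counts in each library, BMP2 did not pass the filter of the fit and was not tested. A difference was not detectable at this depth.

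FST (chr5:53480409-53487134, plus strand), which encodes follistatin, followed TGFB2 from library to library. Its level was 56.08 and 18.14 FPKM in vector 1 and 2, 66.88 without MRCKα, 53.00 without MRCKβ, and 65.59 and 34.13 in DKO 1 and 2. Vector 2 was lowest and DKO 2 second lowest, while vector 1 lay close to DKO 1 and the single knockouts. Vector 1 held 3.25-fold the reads of vector 2 (2.92 to 3.62), and DKO 1 held 2.01-fold those of DKO 2 (1.85 to 2.19). MRCKα KO was 1.19-fold above vector 1 and 3.69-fold above vector 2 in FPKM, so the size of that difference was set by the control chosen. DKO over vector gave a log2 fold change of 0.37 (SE 0.56, adjusted p = 1.0 in edgeR's quasi-likelihood test), and it went from -0.24 without vector 2 to 1.45 without vector 1.

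SMAD7 (chr18:48919853-48952052, minus strand) was lower in all 4 knockout libraries than in both controls. Its level was 2.21 and 2.15 FPKM in vector 1 and 2, 0.90 without MRCKα, 1.64 without MRCKβ, and 1.86 and 1.83 in DKO 1 and 2. The controls were close together, the groups did not overlap, and MRCKα KO was the lowest. It was the only one of the 9 genes with this order, which 4.89% of the 11712 genes with a mean of at least 1 FPKM also had; no member had all 4 knockout libraries above both controls, an order found for 6.82% of those genes. The reads were few, at 63 in each control, 29 without MRCKα, 44 without MRCKβ, and 48 and 50 in DKO 1 and 2. MRCKα KO held 0.466-fold the reads of the vector libraries (0.3 to 0.703) and MRCKβ KO 0.69-fold (0.478 to 0.98). The MRCKβ KO interval ran from 0.465 to 1.05 against vector 1 alone and from 0.452 to 1.02 against vector 2 alone. DKO held 0.779-fold (0.592 to 1.02), with a log2 fold change of -0.38 (SE 0.30, adjusted p = 1.0 in edgeR's quasi-likelihood test) that stayed between -0.40 and -0.36 with any 1 library left out. EPCAM, a luminal epithelial marker, stood at 2.62 and 2.47 FPKM in vector 1 and 2, 0.73 without MRCKα, 1.86 without MRCKβ, and 2.17 and 1.82 in DKO 1 and 2, with both controls highest and the library without MRCKα lowest as for SMAD7, and its part in the result was not tested. GATA3, the other luminal marker to reach 1 FPKM, did not share this order, with 2.59 and 3.79 FPKM in vector 1 and 2, 3.10 without MRCKα, 3.90 without MRCKβ, and 4.18 and 3.74 in DKO 1 and 2. Of the 6 luminal markers 2 reached 1 FPKM in any library. ESR1 lay at 0.53 to 0.87 FPKM, CDH1 at 0.25 to 0.64 FPKM, and FOXA1 and PGR at or below 0.17 FPKM.

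The BMP targets ID1 and ID3 had the opposite profile to TGFB2 and FST over the controls. ID1 (chr20:31605283-31606515, plus strand) stood at 6.23 and 14.41 FPKM in vector 1 and 2, 9.07 without MRCKα, 7.21 without MRCKβ, and 12.15 and 10.60 in DKO 1 and 2. Vector 1 was the lowest and vector 2 the highest library, with every knockout library between them. Vector 2 held 2.31-fold the reads of vector 1 (1.72 to 3.15). In DKO the log2 fold change was 0.15 (SE 0.40, adjusted p = 1.0 in edgeR's quasi-likelihood test), and it was -0.34 without vector 1 and 0.88 without vector 2.

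ID3 (chr1:23557918-23559794, minus strand) varied most among the 8 members with a mean of at least 1 FPKM. Its level was 2.43 and 10.17 FPKM in vector 1 and 2, 4.69 without MRCKα, 1.83 without MRCKβ, and 3.64 and 7.71 in DKO 1 and 2. Vector 2 was highest and DKO 2 next, the libraries in which FST and TGFB2 were lowest, and the highest value was 5.56-fold the lowest. Vector 2 held 4.18-fold the reads of vector 1 (2.82 to 6.37), and DKO 2 held 2.12-fold those of DKO 1 (1.48 to 3.06). MRCKβ KO had 0.752-fold the reads of vector 1 (0.424 to 1.32) and 0.18-fold those of vector 2 (0.111 to 0.279), so its position was clear of counting error against only the second control. The log2 fold change in DKO was -0.17 (SE 0.68, adjusted p = 1.0 in edgeR's quasi-likelihood test), and it ranged from -0.87 without vector 1 to 1.20 without vector 2.

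Thus in 4 of the 9 genes, TGFB2, FST, ID1 and ID3, the 2 empty-vector libraries were more than 2-fold apart, against 4.17% of the 11712 genes with a mean of at least 1 FPKM. The DKO libraries were that far apart in ID3 alone, against 2.37%. Vector 2 was the lowest of the 6 libraries for TGFB2, FST and BMP4, as for 25.1% of genes, and the highest for ID1 and ID3, as for 20.4%. Whether a transcript was lower because fewer cells of one kind were present or because each cell held less of it cannot be told apart in bulk RNA. Of the fibroblast markers, PDGFRB was also lower in vector 2 than in vector 1 and in DKO 2 than in DKO 1, at 5.90 and 1.35 FPKM in vector 1 and 2, 2.19 without MRCKα, 4.65 without MRCKβ, and 3.15 and 1.14 in DKO 1 and 2. COL1A1 and THY1 did not share this direction in both pairs. COL1A1 had 3.26 and 2.27 FPKM in vector 1 and 2 but 2.34 and 2.56 in DKO 1 and 2. THY1 had 1.81 and 1.91 FPKM in vector 1 and 2 but 6.45 and 0.05 in DKO 1 and 2. The 8 fibroblast markers summed to 13.0 and 5.66 FPKM in vector 1 and 2, 6.85 without MRCKα, 9.24 without MRCKβ, and 12.6 and 4.05 in DKO 1 and 2. Of the 8, 3 reached 1 FPKM in any library. Below that level, COL1A2 went from 0.84 to 0.11 FPKM in vector 1 and 2 and from 0.14 to 0.03 in DKO 1 and 2. COL3A1 went from 0.81 to 0.02 and from 0.26 to 0.19 FPKM. DCN and LUM, at or below 0.29 FPKM, were also lower in vector 2 and in DKO 2. PDGFRA, at or below 0.03 FPKM, did not share this direction in both pairs. The 6 mesenchymal-like markers did not move as one, and their sum was 2842.8 FPKM in vector 1 and 3220.0 in vector 2. S100A4 went from 272.8 FPKM in vector 1 to 83.42 in vector 2 and from 146.82 in DKO 1 to 43.67 in DKO 2, the direction of FST, and CAV1 and MSN were also lower in vector 2 and DKO 2. VIM went the other way, from 1544.92 to 2052.46 FPKM in the controls and from 1542.73 to 1887.23 in DKO, as did CD44, from 115.97 to 202.68 and from 121.34 to 177.69 FPKM, and AXL, from 270.92 to 367.05 and from 265.46 to 283.94 FPKM. The part of these markers in the differences was not tested.

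Over the 6 libraries the levels of TGFB2 and FST had a Pearson r of 0.98 (Spearman rho 0.83), TGFB2 and BMP4 0.86 (1.0), and FST and BMP4 0.87 (0.83), on the log2(FPKM + 1) scale. ID1 and ID3 had 0.82 (0.77), and ID3 went against TGFB2 with -0.83 (-0.6), FST with -0.77 (-0.43) and BMP4 with -0.73 (-0.6). TGFB1 went against ID3 with -0.79 (-0.77) and had 0.38 (0.14) with TGFB2, and INHBA had -0.01 (0.09) with TGFB2, -0.16 (0.09) with BMP4 and -0.51 (-0.43) with TGFB1. These values describe 6 libraries that include 2 pairs of the same genotype, they share the controls and sequencing depth, and they come from 28 pairs of the 8 members, so no p is given.

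The sequences just upstream of TGFB2, FST, ID1 and ID3 are shown because these are the members that differed most between the controls and did so in opposite directions. Each is the 250 bases before the RefSeq transcript start in GRCh38.p14, read 5′ to 3′ on the strand of the gene, from chr1:218345086-218345335 (plus) for TGFB2, chr5:53480379-53480628 (plus) for FST, chr20:31605039-31605288 (plus) for ID1 and chr1:23559502-23559751 (minus) for ID3. Capitals mark matches, on either strand, to any of 5 motifs: the SMAD palindrome GTCTAGAC, the GC-rich SMAD element GGCGCC, the AP-1 element TGANTCA, the GC box GGCGGG and the TATA element TATAAA.
TGFB2: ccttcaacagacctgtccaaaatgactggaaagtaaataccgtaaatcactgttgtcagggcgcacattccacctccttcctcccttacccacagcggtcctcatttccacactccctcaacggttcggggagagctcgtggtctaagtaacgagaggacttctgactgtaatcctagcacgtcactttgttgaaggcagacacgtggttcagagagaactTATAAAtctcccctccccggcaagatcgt
FST: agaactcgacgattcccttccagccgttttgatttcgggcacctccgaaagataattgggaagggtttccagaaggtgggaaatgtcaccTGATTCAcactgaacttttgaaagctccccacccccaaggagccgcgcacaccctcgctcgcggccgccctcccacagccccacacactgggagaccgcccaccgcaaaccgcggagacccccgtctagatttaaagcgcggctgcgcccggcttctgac
ID1: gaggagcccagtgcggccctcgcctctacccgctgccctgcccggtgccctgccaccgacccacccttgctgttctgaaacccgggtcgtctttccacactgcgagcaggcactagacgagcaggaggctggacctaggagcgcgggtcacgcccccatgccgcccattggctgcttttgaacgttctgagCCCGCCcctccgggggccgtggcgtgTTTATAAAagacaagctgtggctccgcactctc
ID3: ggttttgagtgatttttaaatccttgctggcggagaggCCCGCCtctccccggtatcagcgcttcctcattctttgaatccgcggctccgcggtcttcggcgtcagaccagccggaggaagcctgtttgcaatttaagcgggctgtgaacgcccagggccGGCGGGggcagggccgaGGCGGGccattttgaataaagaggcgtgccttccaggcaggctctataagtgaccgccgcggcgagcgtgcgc

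TGFB2 and ID1 each held a TATA element close to the start, 29 to 24 bases before it in TGFB2 and 33 to 26 bases before it in ID1, where matches on both strands overlap. FST held an AP-1 element 160 to 154 bases before the start, and no other member did. ID1 held 1 GC box and ID3 held 3, while TGFB2 and FST held none. These elements were not confined to the sequences shown. INHBA held a TATA element 11 to 6 bases before a start and SMAD7 one 35 to 30 bases before. TGFB1, BMP4 and SMAD7 held GC boxes. Among all 35116 RefSeq windows of this length, 10.7% held the TATA element, 6.57% the AP-1 element and 42.5% the GC box. The SMAD palindrome, in 0.182% of windows, was in no member's window, and GGCGCC, in 16.4%, was in 1 of the 3 windows of BMP4. A match of letters is a description and not a site of binding. Of the 9 members 8 had a window.

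The rule of the study for changed genes, applied again to the deposited FPKM, first left out genes whose 2 controls or 2 DKO libraries were more than 2-fold apart and then required a change of at least 2-fold in the mean. The study also excluded poorly expressed genes, at a level not given in the sources used here, and that step was not applied, so that BMP2 entered; with a minimum mean of 1 FPKM the members past the rule were 1 in MRCKα KO and 0 in DKO. TGFB2, FST, ID1 and ID3 were left out in all 3 comparisons, which share the 2 vector libraries. In MRCKα KO 2 members were past the rule, SMAD7 with a log2 FPKM ratio of -1.28 and BMP2 with -1.0 on 1 read against 4, where 4.42% of the 12864 genes with a ratio were past it, 1.94% higher and 2.48% lower. In DKO BMP2 was past it with 1.46, where 1.78% of 12254 genes were, 1.02% higher and 0.759% lower. In MRCKβ KO 0 members were past it, where 3.53% of 12903 genes were, 1.68% higher and 1.84% lower. INHBA came nearest of the others in MRCKα KO, with 0.79, and in DKO, with 0.68. In MRCKβ KO BMP2 came nearest, with 0.58 on 3 reads against 4, and INHBA had 0.09.

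**Figure D3:**
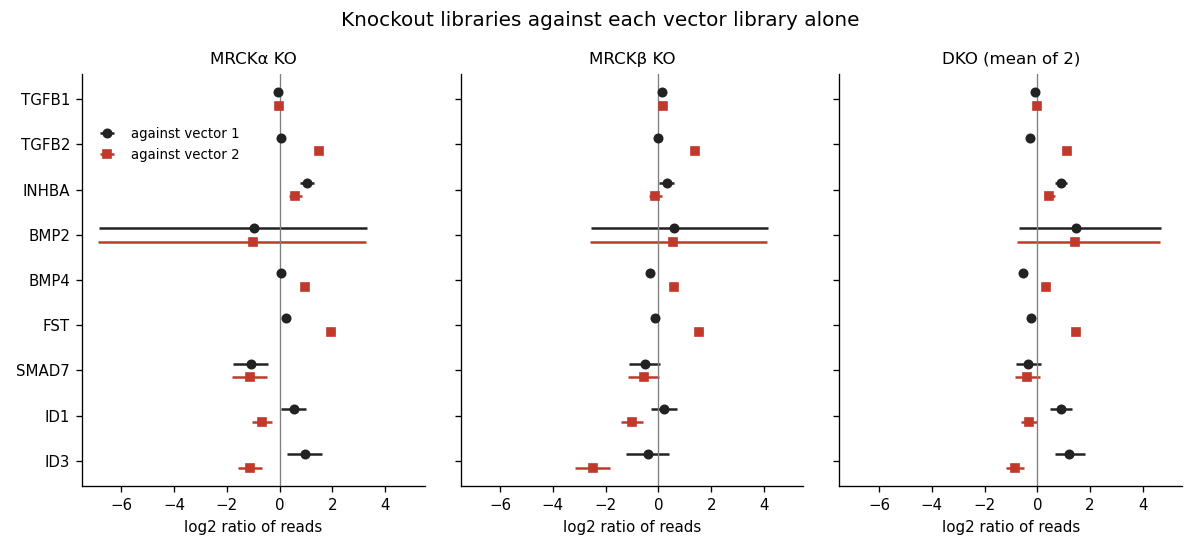
Log2 ratio of reads of each knockout group over vector 1 alone (black circles) and over vector 2 alone (red squares), scaled to library totals, with exact 95% intervals for counting error only. For TGFB2, FST, ID1 and ID3 the 2 symbols stand far apart in every panel. For SMAD7 both symbols lie below 0, but the intervals span 0 for MRCKβ KO and DKO. The intervals of BMP2 span 0 in every panel.

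In the comparison with replicates, 0 of the 8 members tested were called in DKO by edgeR's quasi-likelihood test at an adjusted p of 0.05, where 0.0% of 13123 genes were called and 313 had an unadjusted p under 0.05. DESeq2 called 4 genes, none of them a member. The median log2 fold change was 0.04 over the 8 members and 0.00 over all genes tested. In both DKO libraries INHBA was above both controls, an order found for 17.3% of genes with a mean of at least 1 FPKM, and SMAD7 was below both, as were 12.3%. BMP2 was also above both controls, on 11 reads against 4, but its mean is below 1 FPKM, so that share does not cover it. The controls are separate transductions and the DKO libraries separate guide sets of a single cell line, so the p-values measure only the spread between these samples.

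**Figure D4:**
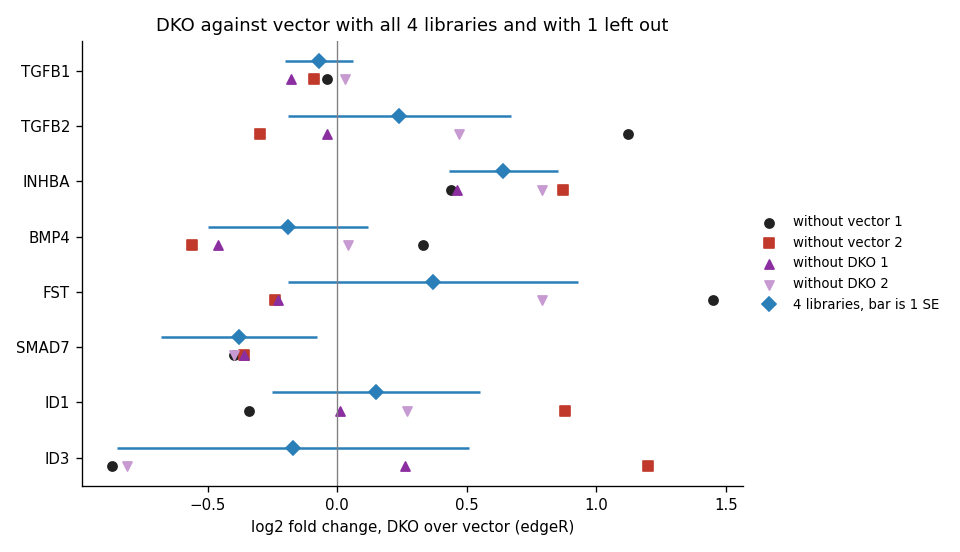
Log2 fold change of DKO over vector from edgeR for the 8 members tested; diamonds use all 4 libraries with a bar of 1 SE, and the other symbols leave out the library named. INHBA stays above 0 and SMAD7 below 0 throughout, while TGFB1, TGFB2, BMP4, FST, ID1 and ID3 have symbols on both sides of 0.

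The wider pathway was described with 7 lists of genes, 102 of which were in the table and 78 were tested in DKO against vector. Of these, 0 were called by edgeR's quasi-likelihood test, and 5 (6.41%) had an unadjusted p under 0.05, 3 higher and 2 lower, against 2.39% of all genes. The controls were more than 2-fold apart for 6 of the 69 list genes with a mean of at least 1 FPKM (8.7%), 4 of which are members described above. The median log2 fold change over the list genes was -0.04.

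Of 14 ligand genes tested, INHBA was the only one with such a p, and 7 were higher and 7 lower. INHBB, another activin subunit gene, had 18.24 and 7.74 FPKM in vector 1 and 2, 13.02 without MRCKα, 17.38 without MRCKβ, and 8.79 and 5.07 in DKO 1 and 2. Its log2 fold change was -0.93 (SE 0.44, adjusted p = 1.0 in edgeR's quasi-likelihood test), opposite in sign to that of INHBA, and DKO 1 lay between the controls. AMH, which encodes anti-Müllerian hormone, had a log2 fold change of -0.80.

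The 11 receptor genes tested had a median log2 fold change of -0.08, and 0 had an unadjusted p under 0.05. TGFBR2, the type II TGF-beta receptor, lay between 28.12 and 33.21 FPKM, and the type I receptors TGFBR1 and BMPR1A averaged 11.6 and 15.7 FPKM. The co-receptor ENG varied most, with 8.62 and 16.19 FPKM in vector 1 and 2, 5.37 without MRCKα, 10.62 without MRCKβ, and 16.45 and 1.55 in DKO 1 and 2. Its DKO values were the highest and the lowest of all 6 libraries. All 8 SMAD genes were tested, 0 with an unadjusted p under 0.05, and their median log2 fold change was -0.04. SMAD3, the TGF-beta and activin effector, averaged 31.3 FPKM, SMAD5 of the BMP branch 16.3 and the shared SMAD4 7.34 FPKM. SMAD6, the inhibitory relative of SMAD7, had a log2 fold change of 0.11 (SE 0.21), opposite in sign to that of SMAD7.

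Of 13 extracellular antagonists and latency proteins, 4 were higher and 9 lower in DKO, 1 each with an unadjusted p under 0.05. NOG, which encodes the BMP antagonist noggin, had 27.89 and 25.27 FPKM in vector 1 and 2, 28.25 without MRCKα, 25.21 without MRCKβ, and 34.15 and 39.89 in DKO 1 and 2, so that both DKO libraries were above the other 4. Its log2 fold change was 0.46 (SE 0.14, unadjusted p = 0.0175 and adjusted p = 1.0 in edgeR's quasi-likelihood test). CHRDL1, a chordin-like BMP antagonist, had -0.47 (SE 0.18, unadjusted p = 0.0365 and adjusted p = 1.0 in the same edgeR test). TWSG1, an extracellular BMP modulator, was the most abundant of the list at 51.4 FPKM. Of 13 intracellular regulators 0 had an unadjusted p under 0.05. FKBP1A, which holds type I receptors inactive, averaged 344.0 FPKM, and the ubiquitin ligase SMURF2, which works with SMAD7, averaged 90.7 FPKM with a log2 fold change of 0.00 (SE 0.12).

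Of 16 TGF-beta and activin target genes, 7 were higher and 9 lower in DKO, 1 each with an unadjusted p under 0.05. JUNB, a subunit of the AP-1 transcription factor, had 28.0 and 22.09 FPKM in vector 1 and 2, 30.73 without MRCKα, 40.28 without MRCKβ, and 37.28 and 44.41 in DKO 1 and 2. All 4 knockout libraries were above both controls, with a log2 fold change in DKO of 0.68 (SE 0.17, unadjusted p = 0.00633 and adjusted p = 1.0 in edgeR's quasi-likelihood test). ANGPTL4, a secreted inhibitor of lipoprotein lipase, was lower in DKO, at 3.48 and 4.99 FPKM in vector 1 and 2, 1.19 without MRCKα, 2.69 without MRCKβ, and 1.99 and 0.91 in DKO 1 and 2. All 4 knockout libraries were below both controls, and the log2 fold change in DKO was -1.58 (SE 0.48, unadjusted p = 0.0149 and adjusted p = 1.0 in edgeR's quasi-likelihood test). Among the abundant targets were CTGF at 222.0 FPKM and IL11 at 99.6 FPKM, and their log2 fold changes were 0.07 and -0.07. Of 11 BMP target genes 0 had an unadjusted p under 0.05, 6 were higher and 5 lower, with a median of 0.11. RUNX2, a transcription factor of bone formation, was highest in vector 2 like ID1 and ID3, with 8.84 and 16.76 FPKM in vector 1 and 2, 7.04 without MRCKα, 8.64 without MRCKβ, and 8.62 and 11.3 in DKO 1 and 2.

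Genes whose log2(FPKM + 1) followed each member most closely were sought among 11711 others by Pearson's r over the 6 libraries, which share depth and controls. They were NT5DC3 (0.9938) and BDNF (0.9934) for TGFB2, ICA1 (0.9975) and NFIB (0.995) for FST, and ST3GAL5 (0.9933) for BMP4. For ID1 they were MTMR9 (0.9983) and LRRC59 (0.9974), and for ID3 LAP3 (0.9996) and IRAK1 (0.9955). For INHBA they were NIPA2 (0.9965) and SCO2 (0.992), for SMAD7 ALKBH4 (0.9937) and EPCAM (0.9891), and for TGFB1 UBE2L6 (0.9915) and AGGF1 (0.9852). With 6 libraries such values are common, since 446 genes had r above 0.9 with TGFB2, 422 with ID3, 379 with FST and 93 with SMAD7.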

How the data were processed

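RNA of 6 MDA-MB-231 cultures was sequenced as single-end 50-base reads on the BGISEQ-500. According to the submitters' processing notes the tools were HISAT, Bowtie2 and RSEM and the build GRCh38.p11, with versions not given in the sources used here. The authors deposited expected counts (estimated reads per gene, 61.0 to 61.8% of them whole) with transcript lengths per library, and a table of FPKM, which the authors normalized to length and depth.

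Expected counts were rounded and filtered by group with edgeR's filterByExpr function. DKO was compared with vector in edgeR 4.0.16 (R 4.3.3, TMM factors 0.991 to 1.012, quasi-likelihood test, Benjamini-Hochberg adjustment over 13123 genes, 4 libraries). A filter of at least 10 counts in every library was an alternative setting. DESeq2 1.42.0 and limma 3.58.1 on log2(FPKM + 0.1 or 1) were alternatives. In simulated DKO and vector libraries (12950 genes) edgeR recovered 61.6% of 2-fold and 89.8% of 4-fold changes and called 4 unchanged genes. The simulated spread followed the trend with level alone, so these rates need not hold for genes that vary more, such as FST and ID3. Read ratios were scaled to library totals and given exact 95% intervals (scipy 1.17.1). In each library 3 counts are 2.8e-05 to 2.9e-05% of the total. Paralogs such as ID1 and ID3 can share reads that RSEM splits.

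Gene positions were matched by symbol to the GENCODE annotation of GRCh38, and upstream sequences were taken from RefSeq (GRCh38.p14). Members and gene lists were chosen with earlier results of these data known. Named from each list were the 3 genes with the largest absolute log2 fold change in DKO and the 3 with the highest mean FPKM among genes with a mean of at least 1, of which the text gives a selection. For each member the 2 most similar genes were named, except that some genes under these rules are not reported here, and marker genes came from fixed lists.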

Additional observations from a re-analysis of the deposited data

How the results depend on the processing

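Leaving out 1 library in turn reversed the sign of DKO over vector for TGFB1 (-0.18 to 0.03), TGFB2 (-0.30 to 1.12), FST (-0.24 to 1.45), BMP4 (-0.56 to 0.33), ID1 (-0.34 to 0.88) and ID3 (-0.87 to 1.20), in log2 units, but not for INHBA or SMAD7. ID3 also reversed in limma, to 0.08 with a pseudocount of 0.1 and 0.04 with 1. Under the other 78 settings of the member fold changes the direction and the side of the threshold stayed, and 0 members and 0 genes of the pathway lists were called under any setting run. Over all genes 4 were called with DESeq2, 5 with the replicate block and 0 to 5 with 1 library left out (1 without vector 1, 5 without DKO 1). With the replicate block the log2 fold change was 0.37 for TGFB2, 0.5 for FST, 0.23 for ID1 and -0.01 for ID3. Replicate numbers were not taken to pair samples, because the labels tie the numbers to nothing. The differences between replicates 1 and 2 in vector and in DKO had a positive r of 0.3 over 13123 genes. Only 2 pairs exist, and whether equal numbers mark a pairing was not tested.

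Members past 2-fold in MRCKα KO, 2 as reported, were 1 with a pseudocount of 0.1, 0 with 1, 1 with a minimum mean of 1 FPKM and 1 with counts scaled to library totals, and 3 to 5 with 1 vector library left out (5 without vector 1). In MRCKβ KO, 0 as reported, they were 1 with no filter on replicates and 0 to 3 with 1 vector library left out (3 without vector 1). In DKO, 1 as reported, they were 0 with a pseudocount of 0.1, 0 with 1, 0 with a minimum mean of 1 FPKM, and 1 to 3 with 1 library left out (3 without vector 1, 2 without vector 2). The causes were not tested, apart from BMP2, whose 1 to 6 reads a pseudocount or minimum outweighs. SMAD7 in MRCKα KO also fell short of 2-fold with a pseudocount of 1. Its log2 ratio was then -0.74, against -1.28 as reported and -1.19 with a pseudocount of 0.1. The tests of the lists under these settings, and the order of levels with each library left out, in which neighbouring ranges overlapped in 5 or 6 pairs, were added after the data were seen.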

Other observations

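GDF15, a stress-induced ligand of the family, was singled out after its values were seen. It stood at 6.25 and 0.64 FPKM in vector 1 and 2, 5.14 without MRCKα, 10.56 without MRCKβ, and 5.97 and 3.56 in DKO 1 and 2. Vector 2 was the lowest library, as for TGFB2, FST and BMP4, and the highest library was 16.5-fold above it. The log2 fold change of DKO over vector was 0.45 (SE 0.87, adjusted p = 1.0 in edgeR's quasi-likelihood test).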
